A study of Homo sapiens with 3 samples.

Results

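The kinesins are motor proteins that walk along microtubules or take their ends apart, and the subject here is a set of 40 human KIF and KIFC genes. They were chosen by gene name, through the probe sets annotated to them, and no measured value was used as a cut. Earlier results of these data were known when the set and its split were chosen. All 40 were represented, by 84 of the 54613 probe sets and as 40 of 19775 named genes. They were split into 12 mitotic motors (KIF2C, KIF4A, KIF11, KIF14, KIF15, KIF18A, KIF18B, KIF20A, KIF20B, KIF22, KIF23 and KIFC1, with 18 probe sets) and 28 other motors (66 probe sets), most of which carry cargo or work in cilia. Expression was measured in IMR-90 cells, a line of human fetal lung fibroblasts, grown with 10% serum and collected 24 h after transfection of 1 siRNA. There were 3 cultures with 1 array each: SETD8 siRNA 1 and SETD8 siRNA 2 (below siRNA 1 and siRNA 2), and a control siRNA labelled GL3 (below the control). Both SETD8 siRNAs were directed against SETD8, now called KMT5A, which encodes the enzyme that places a single methyl group on lysine 20 of histone H4. Every culture received an siRNA and the RNAiMAX reagent, and untransfected cells are not analysed here.

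Kinesins share a motor domain that splits ATP and binds tubulin. Some members assemble the bipolar spindle, move and align chromosomes, trim microtubule ends and build the midzone where a dividing cell is cut apart. The mRNAs of these motors are known to peak in G2 and mitosis. Many others carry vesicles, mitochondria and ciliary proteins along microtubules in dividing and resting cells alike. Many G2 and mitosis genes are known to carry a cell cycle genes homology region (CHR) near their start, often a short way downstream of CCAAT boxes, which bind the factor NF-Y. The CHR is bound by the DREAM complex in resting cells and by a complex of B-MYB and FOXM1 in G2.

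With 1 array per siRNA the values have no replicate check, no test was made, and the number of arrays limits the precision. Both comparisons use the same control array, so a high or low control value moves both. Values are linear microarray signals, and levels of different probe sets cannot be compared. The siRNA target was lower on the arrays labelled with it: the brightest KMT5A probe set had 431.4 with siRNA 1 and 584.1 with siRNA 2, against 938.9 with the control. Over its 4 probe sets the mean log2 fold change was -0.64 ± 0.32 with siRNA 1 and -0.39 ± 0.23 with siRNA 2 (SD over probe sets). All 12 fibroblast markers passed the signal filter (a mean signal of 42.0), and their summed signal was 163892 with siRNA 1 and 180631 with siRNA 2, against 168164 with the control. Of the 12, the matrix gene DCN was at least 2-fold lower with siRNA 1, with 7745.9 with siRNA 1 and 22971.2 with siRNA 2, against 20075.4 with the control (log2 fold change -1.37 with siRNA 1, 0.19 with siRNA 2), and S100A4 at least 2-fold higher with siRNA 2, with 2256.6 with siRNA 1 and 3965.8 with siRNA 2, against 1237.3 with the control (log2 fold change 0.87 with siRNA 1, 1.68 with siRNA 2). Of other cell types, 3 of 10 epithelial, 3 of 8 endothelial and 2 of 6 leukocyte markers passed. Their summed signals, in that order, were 364.1, 1608.6 and 211.8 with siRNA 1, 617.4, 2223.9 and 247.2 with siRNA 2, and 514.7, 1394.9 and 152.5 with the control. The endothelial markers that passed were PECAM1, with 135.0 with siRNA 1 and 52.7 with siRNA 2, against 49.0 with the control (log2 fold change 1.46 with siRNA 1, 0.11 with siRNA 2), VWF, with 130.5 with siRNA 1 and 80.9 with siRNA 2, against 59.7 with the control (log2 fold change 1.13 with siRNA 1, 0.44 with siRNA 2), and TEK, with 1274.8 with siRNA 1 and 2033.1 with siRNA 2, against 1251.3 with the control (log2 fold change 0.03 with siRNA 1, 0.70 with siRNA 2). CDH5 and ESAM, 2 of the 8 endothelial markers, were under the floor of 11.7 on all 3 arrays. Of the epithelial markers that passed, EPCAM had log2 fold changes of -1.68 with siRNA 1 and 0.31 with siRNA 2. KRT8 had 0.25 with siRNA 1 and 1.14 with siRNA 2, and SFTPC had -0.23 with siRNA 1 and -0.77 with siRNA 2. The part of these markers in the results below was not tested.

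The promoters of the kinesins are shown first, because the letters of the CHR occur in most mitotic motors and in few others. RefSeq windows of GRCh38.p14, from 250 bases before to 50 after an annotated gene start, were at hand for all 12 mitotic motors and for 20 of 28 other motors. KIF5A, KIF13B, KIF19, KIF21B, KIF26B, KIF27, KIFC2 and KIFC3 were not searched. The CHR was searched as TTTGAA or TTCGAA and the CCAAT box as CCAAT, on both strands. The E2F site was searched on both strands too, first as TTGGCGC, then as TTCCCGC, then as TTGCCGC and last as TTCGCGC. No CHR match in a kinesin window overlapped a CCAAT or E2F match. CHR letters were found in 10 of 12 mitotic motor genes and in 2 of 20 other motor genes, against 19.5% of all 27305 genes with a window. CCAAT letters were found in 10 of 12 mitotic and 7 of 20 other motor genes, against 39.7% of all genes. Both motifs stood in 1 window for 9 of 12 mitotic and 2 of 20 other motors, against 7.85% of all genes. E2F letters were found in 4 of 12 mitotic and 6 of 20 other motors, against 15.3% of all genes.

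Most CHR matches of the mitotic motors lay close to the start. A CHR within 50 bases of the start, a distance chosen after the positions were seen, was held by 9 of 12 mitotic motors and 1 of 20 other motors, against 6.41% of all genes. The nearest CCAAT box lay upstream of it in each of the 9 mitotic windows that held both, with 4 bases between them in KIF23, 18 in KIF14, 19 in KIF4A, 20 in KIF11, 29 in KIF18B, 30 in KIF18A, 34 in KIF22, 45 in KIFC1 and 117 in KIF20B. The other motors with both were KIF24, a centriolar motor, with 43 bases between them, and KIF5B, a cargo motor, whose CHR lay upstream of its CCAAT box. Among the mitotic motors, KIF20A had 2 CCAAT boxes and no CHR letters in its window, KIF15 had a CHR and no CCAAT letters, and KIF2C had neither. A match is a run of letters and not a shown binding site, and a missing match says only that these letters are absent from the window.

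The stretches below run from 150 bases before to 20 after the annotated start, 5′ to 3′ on the gene's own strand. Capitals mark the letters of the CHR and of the CCAAT box in either orientation, so that a CHR on the opposite strand reads TTCAAA and a CCAAT box there reads ATTGG. They show 5 mitotic motors with both motifs, KIF20A with CCAAT boxes alone, and for contrast 2 cargo motors, KIF5B with its motifs in the other order and KIF3B with a single CCAAT box. Their positions in GRCh38.p14 are chr6:33391673-33391842 (plus strand) for KIFC1, chr10:92592980-92593149 (plus strand) for KIF11, chr15:69414199-69414368 (plus strand) for KIF23, chrX:70289954-70290123 (plus strand) for KIF4A, chr17:44947754-44947923 (minus strand) for KIF18B, chr5:138178962-138179131 (plus strand) for KIF20A, chr10:32056406-32056575 (minus strand) for KIF5B and chr20:32277501-32277670 (plus strand) for KIF3B.
KIFC1: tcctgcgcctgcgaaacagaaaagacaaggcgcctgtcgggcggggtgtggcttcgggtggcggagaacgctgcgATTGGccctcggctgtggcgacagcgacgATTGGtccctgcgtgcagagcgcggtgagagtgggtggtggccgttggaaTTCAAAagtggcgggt
KIF11: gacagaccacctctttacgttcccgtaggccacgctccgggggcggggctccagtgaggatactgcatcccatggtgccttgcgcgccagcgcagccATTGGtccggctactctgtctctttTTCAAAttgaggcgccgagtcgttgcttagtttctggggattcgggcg
KIF23: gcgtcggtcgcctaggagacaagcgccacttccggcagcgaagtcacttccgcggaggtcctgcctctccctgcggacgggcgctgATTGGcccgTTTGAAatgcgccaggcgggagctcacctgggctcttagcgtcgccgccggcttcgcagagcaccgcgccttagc
KIF4A: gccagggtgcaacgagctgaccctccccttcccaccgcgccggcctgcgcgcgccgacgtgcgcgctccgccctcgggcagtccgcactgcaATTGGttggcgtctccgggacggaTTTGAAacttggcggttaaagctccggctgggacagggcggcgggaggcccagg
KIF18B: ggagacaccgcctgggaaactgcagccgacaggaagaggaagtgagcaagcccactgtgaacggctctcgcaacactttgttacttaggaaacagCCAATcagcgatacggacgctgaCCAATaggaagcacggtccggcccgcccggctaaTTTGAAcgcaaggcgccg
KIF20A: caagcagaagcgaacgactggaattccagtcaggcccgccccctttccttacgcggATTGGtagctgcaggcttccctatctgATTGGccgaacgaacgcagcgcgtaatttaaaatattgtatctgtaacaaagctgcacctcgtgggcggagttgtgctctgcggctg
KIF5B: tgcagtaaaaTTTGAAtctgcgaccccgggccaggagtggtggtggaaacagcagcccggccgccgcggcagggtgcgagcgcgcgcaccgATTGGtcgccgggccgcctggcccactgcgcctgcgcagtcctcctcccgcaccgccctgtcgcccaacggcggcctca
KIF3B: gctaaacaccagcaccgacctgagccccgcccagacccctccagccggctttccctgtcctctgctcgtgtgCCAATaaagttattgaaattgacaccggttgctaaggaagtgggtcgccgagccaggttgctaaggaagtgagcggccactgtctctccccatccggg

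**Figure D1:**
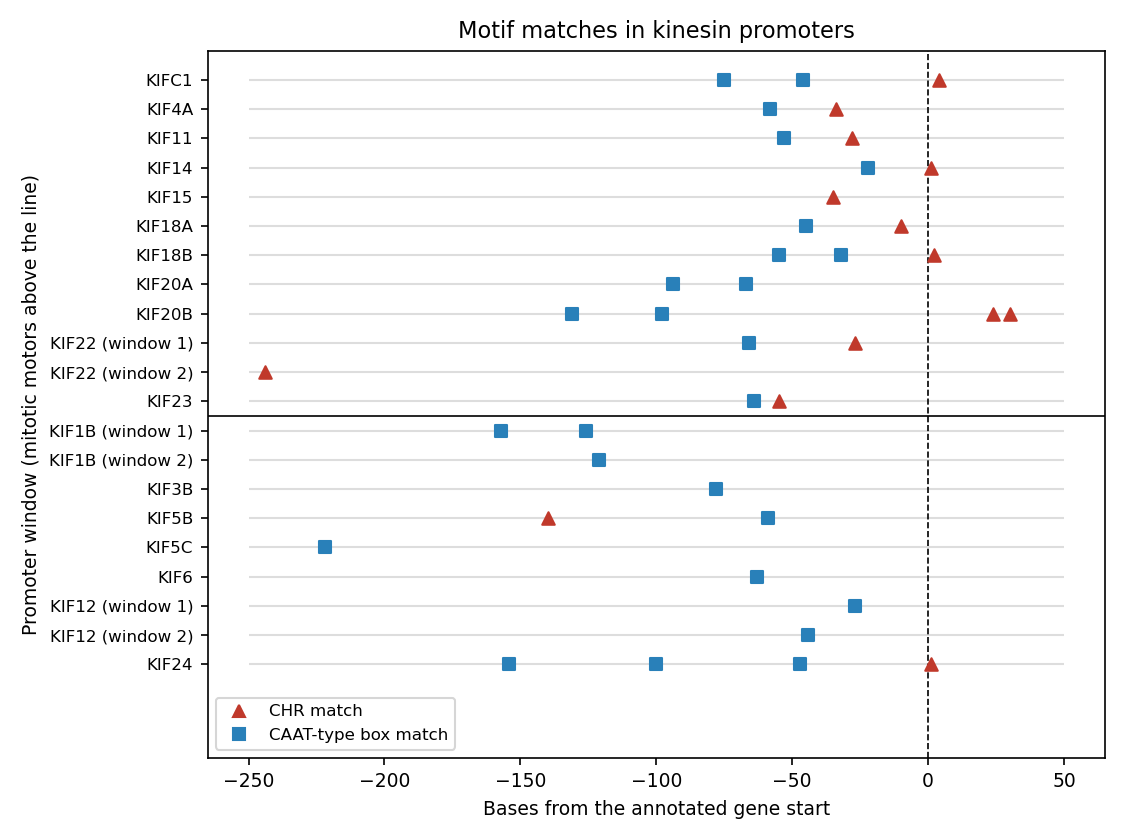
Matches of the CHR (triangles) and of the CCAAT box (squares) in the promoter windows of kinesin genes, by distance in bases from the annotated gene start. In the mitotic motors above the line the triangles gather next to the start with squares on their left, and below the line squares mostly stand alone. The triangle at -244 is the KIF22 site again, seen from that gene's other annotated start.

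Turning to expression, all 12 mitotic motors had a lower signal with siRNA 1 and with siRNA 2 than with the control. Each was at least 2-fold lower with siRNA 1, as were 7.75% of the 12307 genes above the signal filter, and each was at least 2-fold lower with siRNA 2, as were 6.65% of those genes. The median log2 fold change of the 12 was -2.85 with siRNA 1 and -2.52 with siRNA 2 (SD over members 0.47 and 0.99), where the median of all filtered genes was -0.02 with siRNA 1 and -0.01 with siRNA 2. At least 4-fold lower were 11 of the 12 with siRNA 1 (1.89% of filtered genes) and 9 of the 12 with siRNA 2 (1.63%). Division genes were already known to be lower in these data when the lists were chosen, so these counts add no independent support. All 12 passed the filter on the mean of 3 arrays. When the SETD8 siRNA arrays alone set the filter 11 passed, each at least 2-fold lower with either siRNA, and KIFC1 did not. How many of all genes were lower under that filter was not computed. In RNA from whole cultures, fewer cells in G2 and mitosis and less of each mRNA per cell cannot be told apart.

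Among the motors that set up the bipolar spindle, KIF11, also called Eg5, pushes the poles apart by sliding antiparallel microtubules. KIF11 had 325.3 with siRNA 1 and 381.8 with siRNA 2, against 2672.9 with the control (log2 fold change -3.04 with siRNA 1, -2.81 with siRNA 2). KIF15, which can stand in for KIF11, had 74.3 with siRNA 1 and 131.3 with siRNA 2, against 616.5 with the control (log2 fold change -3.05 with siRNA 1, -2.23 with siRNA 2). KIFC1, a minus-end motor that pulls poles together and clusters extra centrosomes, had 56.9 with siRNA 1 and 24.4 with siRNA 2, against 666.7 with the control (log2 fold change -3.55 with siRNA 1, -4.77 with siRNA 2). KIFC1 passed the filter through its control signal, and its signal with siRNA 2 was under the 42.0 of the filter, so the size of its fold change is uncertain. With a pseudocount of 16 instead of the floor its log2 fold change with siRNA 2 was -4.08.

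A second group of mitotic motors works at microtubule ends or chromosome arms. KIF2C, also called MCAK, takes microtubule ends apart at centromeres, and it had 419.9 with siRNA 1 and 364.0 with siRNA 2, against 2943.3 with the control (log2 fold change -2.81 with siRNA 1, -3.02 with siRNA 2). KIF18A, which damps chromosome oscillation at the metaphase plate, had 189.1 with siRNA 1 and 257.8 with siRNA 2, against 823.7 with the control (log2 fold change -2.12 with siRNA 1, -1.68 with siRNA 2). KIF18B, which shortens astral microtubules together with KIF2C, had 275.8 with siRNA 1 and 401.2 with siRNA 2, against 1390.0 with the control (log2 fold change -2.33 with siRNA 1, -1.79 with siRNA 2). The kinesin-8 motors KIF18A and KIF18B thus lay between 3.20-fold and 5.04-fold below the control array. The chromokinesin KIF4A, which binds chromosome arms and later the midzone, had 190.9 with siRNA 1 and 224.9 with siRNA 2, against 1632.2 with the control (log2 fold change -3.10 with siRNA 1, -2.86 with siRNA 2). The chromokinesin KIF22, also called Kid, which pushes chromosome arms away from the poles, had 121.5 with siRNA 1 and 198.1 with siRNA 2, against 455.8 with the control (log2 fold change -1.91 with siRNA 1, -1.20 with siRNA 2). KIF22 had the smallest change of the 12 with either siRNA. Whether the KIF4A probe set also binds its close copy KIF4B was not tested.

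The cytokinesis motors were lower as well. KIF20A, also called MKLP2, carries the chromosomal passenger complex to the midzone, and had 410.7 with siRNA 1 and 208.1 with siRNA 2, against 3239.5 with the control (log2 fold change -2.98 with siRNA 1, -3.96 with siRNA 2). KIF23, also called MKLP1, forms centralspindlin with RACGAP1 and had 436.7 with siRNA 1 and 537.8 with siRNA 2, against 2361.3 with the control (log2 fold change -2.43 with siRNA 1, -2.13 with siRNA 2). KIF20B, also called MPP1, acts late in cytokinesis and had 195.4 with siRNA 1 and 172.3 with siRNA 2, against 1225.4 with the control (log2 fold change -2.65 with siRNA 1, -2.83 with siRNA 2). These kinesin-6 genes were between 4.39-fold and 15.6-fold below the control array. KIF14, which brings citron kinase to the midbody, had 266.0 with siRNA 1 and 417.7 with siRNA 2, against 1971.7 with the control (log2 fold change -2.89 with siRNA 1, -2.24 with siRNA 2).

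**Figure D2:**
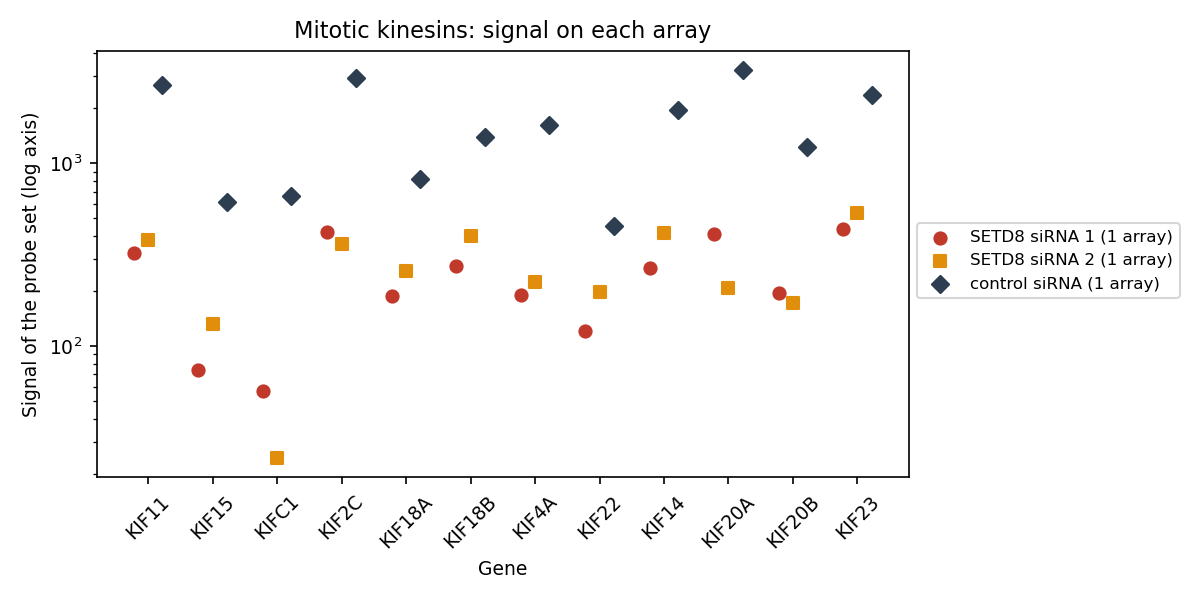
Signal of the 12 mitotic kinesins (log axis), 1 point per array, with SETD8 siRNA 1, SETD8 siRNA 2 and the control siRNA from left to right for each gene. For every gene the control array stands above both SETD8 siRNA arrays, by the least for KIF22. Levels of different genes come from different probe sets and are not to be compared.

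Separate probe sets of a mitotic motor mostly gave the same direction. Of the 18 probe sets, 15 had a mean above the filter, and 14 of those were at least 2-fold lower with siRNA 1 and 14 with siRNA 2. The share of all probe sets that were lower was not computed. The exception on both arrays was the dimmer KIF22 probe set, with 83.2 with siRNA 1 and 83.5 with siRNA 2, against 123.8 with the control (log2 fold change -0.57 with either siRNA). The other KIF2C probe set had -2.07 with siRNA 1 and -2.58 with siRNA 2, and the other KIF14 probe set -2.47 and -2.46. The other KIF23 probe set was under the filter, at -2.91 with siRNA 1 and -1.52 with siRNA 2. A pair of further KIF20B probe sets, with signals between 2.6 and 17.7 and under the filter, did not share the direction, at 0.56 and 0.00 with siRNA 1 and at 0.60 and 0.20 with siRNA 2.

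The other motors mostly stayed within 2-fold of the control. Of the 28, 17 passed the filter. Of these 1 was at least 2-fold lower and 0 higher with siRNA 1, where 7.75% of filtered genes were lower and 5.48% higher. With siRNA 2, 1 was lower and 1 higher, where 6.65% of filtered genes were lower and 4.46% higher. Their median log2 fold change was -0.14 with siRNA 1 and 0.21 with siRNA 2 (SD over members 0.59 for each). Over all 28, with no filter, the medians were -0.02 and 0.00, with 3 lower and 2 higher for siRNA 1 and 4 lower and 1 higher for siRNA 2. Without a filter, 8.59% of named genes were called lower and 7.79% higher with siRNA 1, and 8.16% lower and 6.66% higher with siRNA 2. Of the 17, 0 were at least 4-fold lower with either siRNA.

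The cargo motors KIF5B and KIF1B and the depolymerase KIF2A were near the control level. KIF5B, the widely expressed heavy chain of conventional kinesin, had 9932.6 with siRNA 1 and 10808.1 with siRNA 2, against 10239.1 with the control (log2 fold change -0.04 with siRNA 1, 0.08 with siRNA 2). KIF1B, which carries mitochondria and vesicles, had 3036.7 with siRNA 1 and 4010.7 with siRNA 2, against 3350.5 with the control (log2 fold change -0.14 with siRNA 1, 0.26 with siRNA 2). KIF2A, a relative of KIF2C that takes microtubule ends apart and also acts outside mitosis, had 2106.1 with siRNA 1 and 1670.4 with siRNA 2, against 2584.6 with the control (log2 fold change -0.30 with siRNA 1, -0.63 with siRNA 2). All of these values lay within 1.55-fold of the control array. KIF16B, a motor of early endosomes, had log2 fold changes of 0.15 with siRNA 1 and -0.28 with siRNA 2, and -0.28 and 0.50 on its other probe set. KIF13B, which carries membrane cargo, had -0.49 with siRNA 1 and -0.42 with siRNA 2. KIF1C, a carrier of vesicles and integrins, was the single other motor called higher, with 860.3 with siRNA 1 and 2147.1 with siRNA 2, against 982.7 with the control (log2 fold change -0.19 with siRNA 1, 1.13 with siRNA 2). KIF13A, which moves recycling endosomes, was not called and had 2211.1 with siRNA 1 and 4176.0 with siRNA 2, against 4261.8 with the control (log2 fold change -0.95 with siRNA 1, -0.03 with siRNA 2).

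Of the ciliary motors, KIF3A, KIF3B and KIF9 were above the control level with either siRNA, by less than 2-fold, on their brightest probe sets. KIF6 and KIF19, also linked to cilia and given below, were under the control level with either siRNA, and KIF19 did not pass the filter. KIF7 was under the control level with siRNA 1 and above it with siRNA 2. KIF3A and KIF3B form the kinesin-2 motor that carries intraflagellar transport trains. KIF3B had 3010.1 with siRNA 1 and 1763.7 with siRNA 2, against 1512.1 with the control (log2 fold change 0.99 with siRNA 1, 0.22 with siRNA 2). KIF3A had 908.5 with siRNA 1 and 815.3 with siRNA 2, against 702.5 with the control (log2 fold change 0.37 with siRNA 1, 0.21 with siRNA 2). KIF9, a motor of motile cilia, had 1375.1 with siRNA 1 and 888.6 with siRNA 2, against 730.6 with the control (log2 fold change 0.91 with siRNA 1, 0.28 with siRNA 2). Its other probe sets above the filter had 1.10 and 0.55 with siRNA 1, and 0.51 and -0.13 with siRNA 2. KIF3B with siRNA 1 was just under the 2-fold line, which it crossed after median scaling or quantile normalization. KIF3C, another kinesin-2 motor, had log2 fold changes of 0.24 with siRNA 1 and 0.45 with siRNA 2, and -0.05 and -0.20 on its other probe set. KIF7, a motor that works in Hedgehog signalling at the tip of the cilium, had 102.2 with siRNA 1 and 264.5 with siRNA 2, against 172.5 with the control (log2 fold change -0.76 with siRNA 1, 0.62 with siRNA 2).

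The remaining motors above the filter were dim. KIF6, a kinesin-9 motor known from mouse ependymal cilia, was the single other motor called lower with siRNA 1, with 40.5 with siRNA 1 and 59.1 with siRNA 2, against 82.0 with the control (log2 fold change -1.02 with siRNA 1, -0.47 with siRNA 2). KIF25, a minus-end motor of centrosomes, was the single one called lower with siRNA 2, with 117.0 with siRNA 1 and 37.2 with siRNA 2, against 91.7 with the control (log2 fold change 0.35 with siRNA 1, -1.30 with siRNA 2). Both lie where the arrays differ most from each other. KIF26B, an atypical kinesin that acts in Wnt signalling, had log2 fold changes of -0.47 with siRNA 1 and -0.62 with siRNA 2. KIFC2 had 0.18 with siRNA 1 and 0.35 with siRNA 2, and 0.72 and 0.76 on its other probe set. KIFC3, a minus-end motor of cell junctions and the Golgi, had -0.63 with siRNA 1 and 0.60 with siRNA 2, and 0.60 and 0.39 on its other probe set.

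The 11 motors under the filter include most of the neuronal ones. KIF17, KIF21B and KIF26A were under the floor on all 3 arrays. KIF1A, the carrier of synaptic vesicle precursors, had 30.2 with siRNA 1 and 25.5 with siRNA 2, against 36.3 with the control. The neuronal heavy chain KIF5A had 33.6 with siRNA 1 and 9.8 with siRNA 2, against 26.1 with the control. These are signals at which a fold change says little. KIF21A, a neuronal kinesin-4 motor, had 36.8 with siRNA 1 and 52.6 with siRNA 2, against 26.8 with the control. KIF12 had 38.2 with siRNA 1 and 13.8 with siRNA 2, against 12.4 with the control, and KIF27, a kinesin-4 relative of KIF7, had 25.2 with siRNA 1 and 9.1 with siRNA 2, against 2.8 with the control. KIF5C, KIF19 and KIF24 had their highest signal with the control. KIF5C, another neuronal heavy chain, had 23.2 with siRNA 1 and 7.8 with siRNA 2, against 58.7 with the control. KIF19, which shortens ciliary microtubules in mice, had 13.2 with siRNA 1 and 9.9 with siRNA 2, against 65.5 with the control. KIF24 was under the floor on both SETD8 siRNA arrays and above it on the control array. KIF5C and KIF19 pass through their control signal when the control array alone sets the filter, a choice that favours genes lower on the other arrays. The count of other motors at least 2-fold lower is then 3 of 19 with either siRNA. The share of all genes lower under that filter was not computed.

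**Figure D3:**
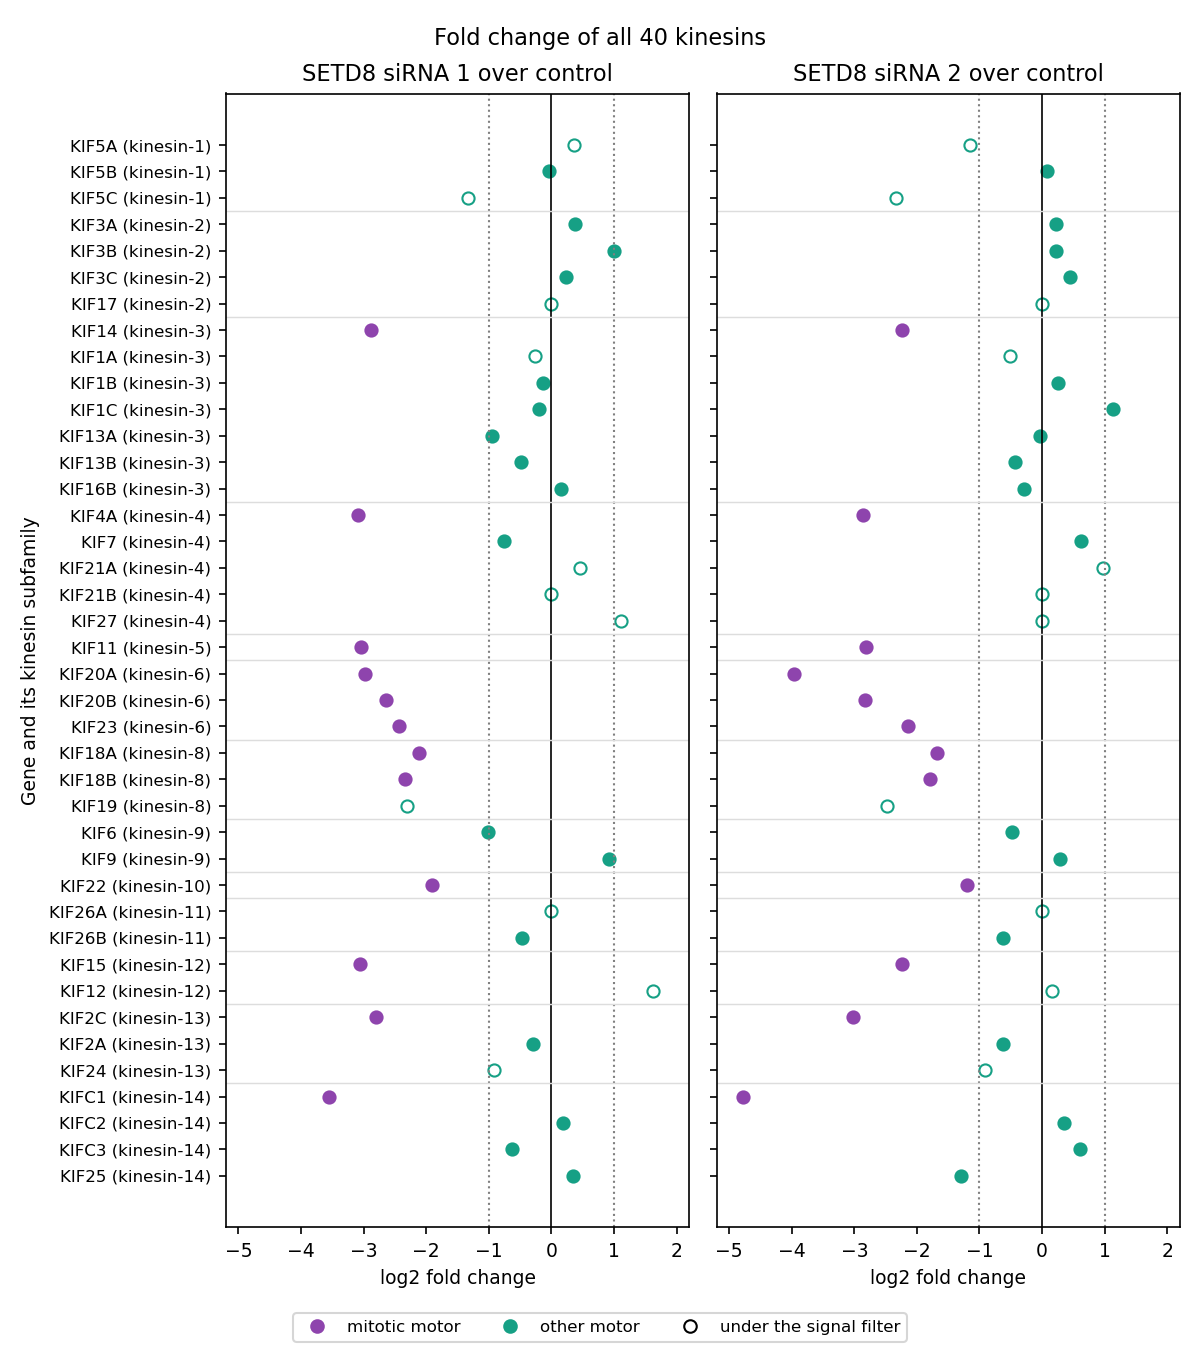
Log2 fold change of all 40 kinesins with SETD8 siRNA 1 (left) and SETD8 siRNA 2 (right) over the control siRNA, in order of kinesin subfamily. Dotted lines mark 2-fold, and open points are genes under the signal filter. The 12 mitotic motors lie between -3.55 and -1.91 on the left and between -4.77 and -1.20 on the right, and the 17 filled points of the other motors lie between -1.02 and 0.99 and between -1.30 and 1.13.

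Several subfamilies hold motors of both kinds. Of the 13 kinesin subfamilies that the 40 genes span, 6 hold a mitotic motor and another one, namely kinesin-3, kinesin-4, kinesin-8, kinesin-12, kinesin-13 and kinesin-14. In kinesin-13, KIF2C had log2 fold changes of -2.81 with siRNA 1 and -3.02 with siRNA 2, where its relative KIF2A had -0.30 with siRNA 1 and -0.63 with siRNA 2. In kinesin-3, KIF14 had -2.89 with siRNA 1 and -2.24 with siRNA 2, where KIF1B, KIF1C, KIF13A, KIF13B and KIF16B lay between -0.95 and 1.13. In kinesin-14, KIFC1 had -3.55 with siRNA 1 and -4.77 with siRNA 2, where KIFC2, KIFC3 and KIF25 lay between -1.30 and 0.60. Among the members above the filter, the mitotic motor was the lower one in kinesin-13, kinesin-3 and kinesin-14. KIF24 of kinesin-13 and KIF1A of kinesin-3 were under the filter and were not placed in this order. KIF24 had signals under the floor on both SETD8 siRNA arrays, so its place beside KIF2C could not be read. In kinesin-4, KIF4A had -3.10 with siRNA 1 and -2.86 with siRNA 2, where KIF7, the other member above the filter, had -0.76 with siRNA 1 and 0.62 with siRNA 2. In kinesin-8 no order could be read, because the ciliary KIF19 was under the filter, with its siRNA 2 signal under the floor. KIF19 had -2.31 with siRNA 1 and -2.48 with siRNA 2, and its other probe set was under the floor on every array. KIF18A had -2.12 with siRNA 1 and -1.68 with siRNA 2, and KIF18B had -2.33 with siRNA 1 and -1.79 with siRNA 2. In kinesin-12, KIF15 had -3.05 with siRNA 1 and -2.23 with siRNA 2, where KIF12, also under the filter, had 1.62 with siRNA 1 and 0.15 with siRNA 2.

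The SETD8 siRNA arrays can also be set against each other without the control array. Over all filtered genes, the 95th percentile of the absolute log2 difference between them was 2.21, 1.72, 1.25 and 1.14 from the lowest to the highest quartile of signal, a spread that holds array noise and any real difference between the siRNAs. The change against the control exceeded the value of its own quartile for all 12 mitotic motors with siRNA 1 and for 10 with siRNA 2, and for 0 of the 17 other motors with either. KIF18A and KIF22 were the ones that did not exceed it with siRNA 2. The share of all filtered genes beyond these values against the control was not computed, so these counts have no background beside them. With siRNA 2 over siRNA 1, 1 of the 12 mitotic motors was at least 2-fold lower (6.38% of filtered genes) and 0 at least 2-fold higher (6.18%). The log2 difference had a median of 0.27, was above 0 for 8 and below 0 for 4, and ran from -1.22 to 0.82. The motors below 0 were KIFC1 (-1.22), KIF20A (-0.98), KIF2C (-0.21) and KIF20B (-0.18), and 0 of the 12 differed beyond the 95th percentile.

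Of the 17 other motors, 3 were called higher (6.18% of filtered genes) and 1 lower (6.38%) at 2-fold with siRNA 2 over siRNA 1. Of all 12307 filtered genes, 616 lay beyond the 95th percentile of their own quartile. KIF1C, at 1.32 against 1.25, was the single kinesin to do so. Its 3 probe sets agreed in direction, with 2147.1 against 860.3, 487.0 against 296.1, and 44.5 against 4.8, for siRNA 2 against siRNA 1. KIF7 (1.37) and KIFC3 (1.23) were the other higher ones and KIF25 (-1.65) the lower one, all within the spread of dim genes. KIF13A had a log2 difference of 0.92 and KIF3B of -0.77. All 6 KIF13A probe sets were below the control array, between -1.92 and -0.67 with siRNA 1 and between -1.55 and -0.03 with siRNA 2. The KIF3B probe sets had 0.99 and 0.69 with siRNA 1 and 0.22 and 0.25 with siRNA 2.

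**Figure D4:**
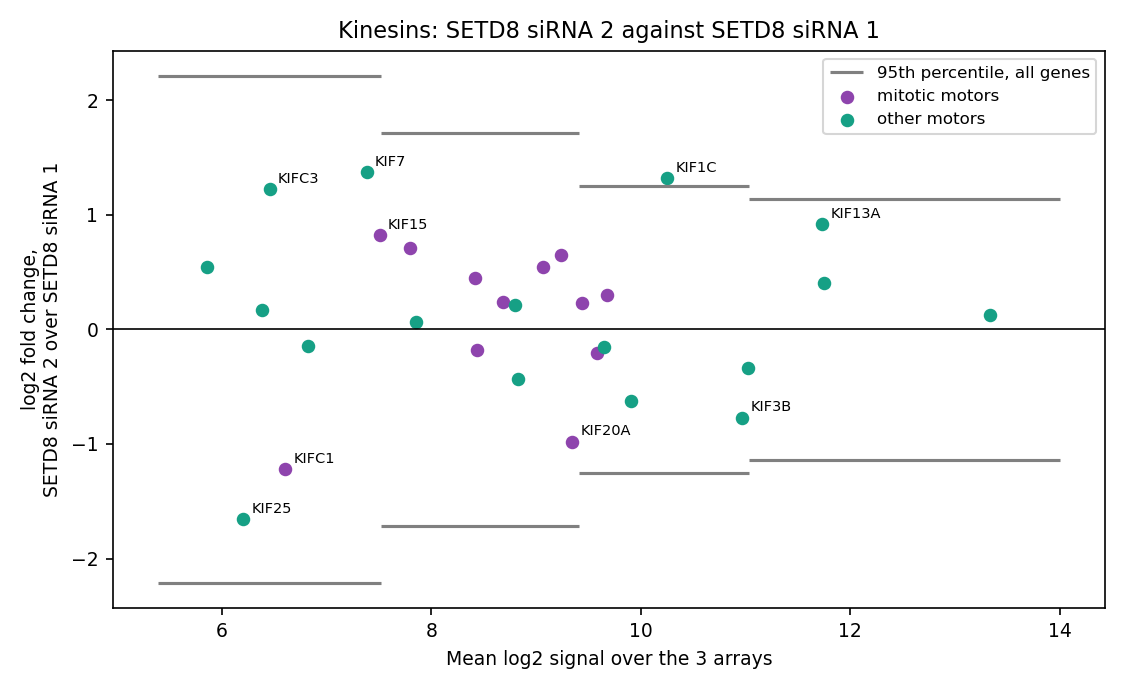
Log2 fold change of SETD8 siRNA 2 over SETD8 siRNA 1 for the 12 mitotic and 17 other kinesins above the filter, against their mean log2 signal over 3 arrays. Grey lines mark the 95th percentile of the absolute difference over all genes in each quartile of signal. Of these kinesins KIF1C alone lies outside them, as do 616 of all 12307 filtered genes, and the mitotic motors lie inside on both sides of 0.

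Genes for the proteins that mitotic motors work with were lower too. Of 20 listed partners and regulators 19 were measured, and 18 were at least 2-fold lower with siRNA 1 (7.75% of filtered genes) and 18 with siRNA 2 (6.65%). The list medians were -2.65 with siRNA 1 and -2.27 with siRNA 2. PLK1, counted among the 18, had 46.3 with siRNA 1 and 26.6 with siRNA 2, against 128.5 with the control. PLK1 passed the filter through its control signal. Its signal with siRNA 2 was under the filter, so the size of its fold change is uncertain. PRC1, the midzone bundler that recruits KIF4A, KIF14 and KIF20A, had 760.0 with siRNA 1 and 997.2 with siRNA 2, against 6344.9 with the control (log2 fold change -3.06 with siRNA 1, -2.67 with siRNA 2). NUSAP1, a spindle microtubule binder, had log2 fold changes of -2.90 with siRNA 1 and -3.00 with siRNA 2. HMMR, a spindle pole protein, had -3.10 with siRNA 1 and -2.56 with siRNA 2, and CDCA8, a subunit of the passenger complex that KIF20A carries, had -3.18 with siRNA 1 and -2.44 with siRNA 2. CENPE, the kinetochore motor of kinesin-7, which is not named as a KIF gene, had 307.2 with siRNA 1 and 405.3 with siRNA 2, against 2230.5 with the control (log2 fold change -2.86 with siRNA 1, -2.46 with siRNA 2). NUMA1, which anchors dynein at the poles and is also an interphase nuclear protein, was the member not called, at -0.17 with siRNA 1 and -0.50 with siRNA 2. Of the 16 partners with a promoter window, 11 held CHR letters, against 19.5% of all genes, and all 11 held them within 50 bases of the start, against 6.41% of all genes. Division genes were already known to be lower in these data, so the list adds no independent support.

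Genes for partners of the cargo motors had medians near 0. Of 28 kinesin light chains and cargo adaptors 22 passed the filter, with medians of 0.09 for siRNA 1 and 0.15 for siRNA 2. With siRNA 1, 3 of the 22 were called higher and 0 lower at 2-fold, where 5.48% of filtered genes were higher and 7.75% lower. With siRNA 2, 1 was higher and 0 lower, where 4.46% were higher and 6.65% lower. MAP7, which recruits KIF5B to microtubules, had 94.1 with siRNA 1 and 92.5 with siRNA 2, against 45.8 with the control (log2 fold change 1.04 with siRNA 1, 1.01 with siRNA 2). KLC4, a kinesin light chain, had log2 fold changes of 1.20 with siRNA 1 and 0.38 with siRNA 2, and MAPK8IP2, a scaffold bound by light chains, had 1.25 with siRNA 1 and -0.48 with siRNA 2. All 3 were dim. Of 28 genes of cytoplasmic dynein, dynactin and their helpers 23 passed, with medians of -0.03 for siRNA 1 and 0.22 for siRNA 2. The single one called was DYNLT3, a dynein light chain, which was higher with siRNA 2 (4.46% of filtered genes). DYNLT3 had 12341.0 with siRNA 1 and 16449.2 with siRNA 2, against 7149.5 with the control (log2 fold change 0.79 with siRNA 1, 1.20 with siRNA 2).

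Genes for the intraflagellar transport trains that KIF3A and KIF3B carry had medians of -0.01 with siRNA 1 and -0.25 with siRNA 2 over 25 genes. With siRNA 1, 1 was at least 2-fold lower (7.75% of filtered genes) and 1 higher (5.48%). With siRNA 2, 4 were at least 2-fold lower (6.65%) and 0 higher (4.46%), and 18 of the 25 were below 0, as were 6291 of the 12307 filtered genes. DYNC2I2, a chain of the ciliary dynein, had 182.2 with siRNA 1 and 187.7 with siRNA 2, against 384.3 with the control (log2 fold change -1.08 with siRNA 1, -1.03 with siRNA 2). IFT70B had log2 fold changes of -0.59 with siRNA 1 and -1.26 with siRNA 2, and IFT122 had -0.36 with siRNA 1 and -1.14 with siRNA 2. IFT81 had -0.12 with siRNA 1 and -1.03 with siRNA 2, and IFT140 had 1.15 with siRNA 1 and 0.41 with siRNA 2. With siRNA 2 over siRNA 1, 20 of the 25 were below 0, as were 6174 of the 12307 filtered genes. Of 6 Hedgehog pathway genes, read beside KIF7, 5 passed, with medians of 0.01 and -0.71. GLI3, a transcription factor processed at the cilium, was the single one at least 2-fold lower, with siRNA 2 (6.65% of filtered genes). GLI3 had 642.6 with siRNA 1 and 268.5 with siRNA 2, against 639.9 with the control (log2 fold change 0.01 with siRNA 1, -1.25 with siRNA 2).

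**Figure D5:**
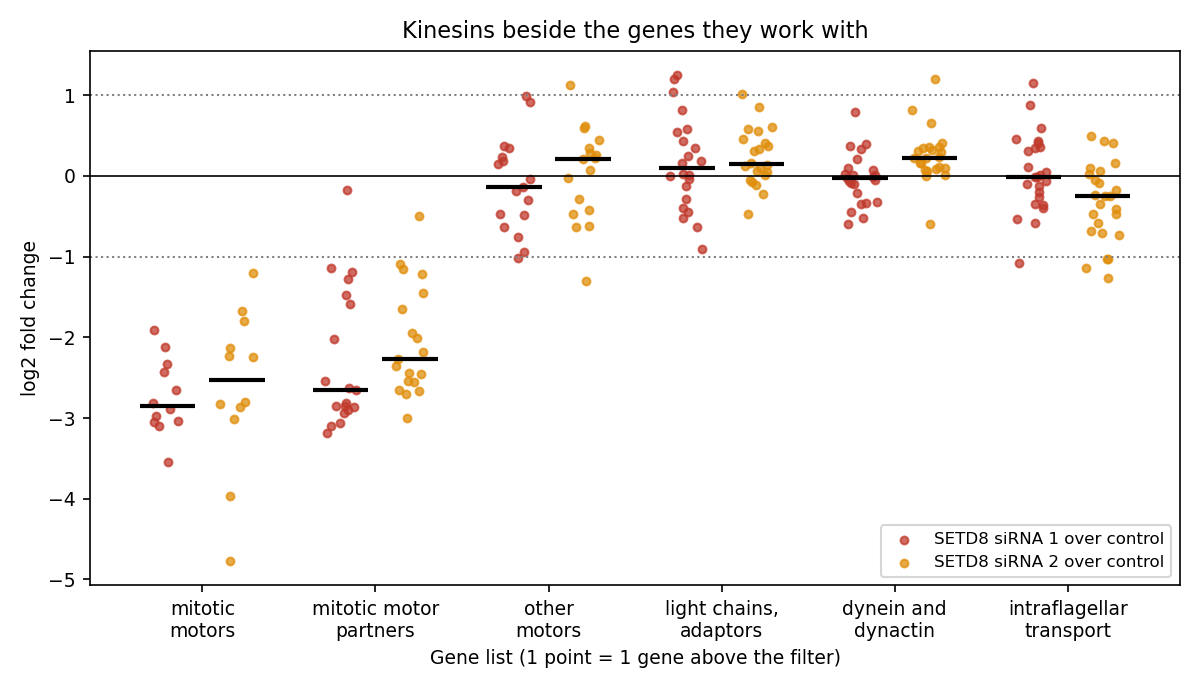
Log2 fold change over the control siRNA of kinesins and of the genes they work with, with SETD8 siRNA 1 left and SETD8 siRNA 2 right in each list. A point is a gene above the filter, a bar the list median, and dotted lines mark 2-fold. The medians of mitotic motors (-2.85 and -2.52) and their partners (-2.65 and -2.27) lie below those of the other lists.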

How the data were processed

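Each deposited file value is an intensity, a linear signal of 1 probe set on 1 array, which the authors computed with MAS5 as given by the submitters' processing notes; which version and settings they used is not given in the sources used here. Per the labels' protocols, 250 ng of total RNA was labelled per sample. The trimmed mean, with 2% of values removed at each end, was 497 on every array, so no scaling was added; a shift common to all genes could not be seen. The values used here carry no detection calls, so a low signal may be background.

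Gene names came from the platform annotation that GEO holds, brought to current RefSeq symbols: 41091 of 54613 probe sets had 1 symbol (41037 matched), 1801 with several were dropped, and 11721 were unnamed. Signals were floored at 11.7, the 25th percentile, and log2 was taken. A gene was read from its brightest probe set by mean log2 signal, and it passed the filter at 5.39, the median of all probe sets (a signal of 42.0); 12307 of 19775 genes passed.

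Genes were counted at a fixed size of 2-fold, for each SETD8 siRNA on its own, with no test. The text names all members and, from each further list, up to 4 genes a direction with the largest change past 2-fold. CENPE, NUMA1, PLK1 and the named cell type markers were added after their values were seen. The members and lists were chosen with earlier results of these data known. Promoter windows are RefSeq's. The gene step was tested on simulated data. A planned search of the proteins was not run. The alternatives covered scaling (median or quantile), the floor (a pseudocount of 16), the filter (none, the 75th percentile, or set by the control array or the SETD8 siRNA arrays alone), the probe sets (their mean, or without those ending in _s_at, _x_at or _a_at) and the size (1.5-fold or 3-fold). Python 3.11.15, numpy 2.4.6, pandas 2.3.3 and matplotlib 3.10.9 were used.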

Additional observations from a re-analysis of the deposited data

Results flagged for a closer look

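A probe set annotated to KIF25-AS1, the antisense neighbour of KIF25, is not among the kinesin probe sets compared above, and with siRNA 1 its signal was above that of the control. It had 185.6 with siRNA 1 and 23.4 with siRNA 2, against 24.5 with the control (log2 fold change 2.92 with siRNA 1, -0.07 with siRNA 2). This probe set passed the filter only through its siRNA 1 signal. Its siRNA 2 and control signals were under the filter, so the size of its fold change is uncertain. The other KIF25-AS1 probe sets lay under the filter, with 27.6 with siRNA 1 and 6.9 with siRNA 2, against 33.7 with the control, and with 32.6 with siRNA 1 and 6.0 with siRNA 2, against 2.0 with the control.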

How the results depend on the processing

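All 12 mitotic motors stayed below the control array under every alternative in which they passed the filter. Of 192 such single-gene values, 191 were at least 2-fold lower. The exception was KIF22 with siRNA 2 when probe sets were averaged (-0.89). Many of these values are repeats, since a changed filter cut leaves a gene's value as it was. For a gene with 1 probe set, averaging or choosing probe sets does so too. The count of mitotic motors at least 2-fold lower was 7 of 7 with either siRNA under the filter at the 75th percentile. It was also 7 of 7 with shared probe sets left out, because fewer genes passed. Apart from the setting with no filter, the share of all genes called under each alternative was not computed. The medians of the mitotic motors ranged from -2.98 to -2.68 with siRNA 1 and from -2.81 to -2.24 with siRNA 2. Those of the other motors ranged from -0.19 to 0.05 and from 0.00 to 0.26, so the sign of the first is not settled. The few calls among the other motors moved with the setting. With siRNA 1 the count lower (1) became 4 at 1.5-fold, 3 with no filter or with the control array as the chooser, 2 without shared probe sets, and 0 at 3-fold, with median scaling, quantile normalization, the pseudocount or the 75th percentile. The count higher (0) became 2 at 1.5-fold or with no filter, and 1 with median scaling, quantile normalization or averaged probe sets. With siRNA 2 the count lower (1) became 3 at 1.5-fold or with the control array as the chooser, 4 with no filter, and 0 at 3-fold, at the 75th percentile, with averaged probe sets or without shared ones, and the count higher (1) became 3 at 1.5-fold and 0 at 3-fold or with averaged probe sets. The limit for a move was 0.57, the SD estimated for 1 array from the gap between the SETD8 siRNA arrays. Of 476 single-gene values, such repeats included, 7 moved by more than that, and 0 past 2-fold changed sign. The largest were KIF13A without shared probe sets, at -1.83 and -0.87, and KIFC1 with the pseudocount, at -4.08. Causes were not tested. Low signals limit the dim motors. No paired analysis was possible because each siRNA has 1 array.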

Other observations

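KIF2B, a relative of KIF2A and KIF2C that was not among the 40 genes, had 22.7 with siRNA 1 and 28.3 with siRNA 2, against 2.8 with the control, under the filter on the mean of 3 arrays. KIF23-AS1, antisense to KIF23, had 1.4 with siRNA 1 and 14.9 with siRNA 2, against 30.8 with the control. It was under the filter too, with its siRNA 1 signal under the floor. KIF9-AS1, antisense to KIF9, had 82.9 with siRNA 1 and 58.2 with siRNA 2, against 64.7 with the control.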
